A study of Mus musculus with 9 samples.

Results

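Arginine and itaconate metabolism was followed through 7 genes of 22136: Arg1, Arg2, Slc7a2, Nos2, Ass1, Odc1 and Acod1. They came from a list of 8 names, since Irg1 is the older symbol of Acod1. The genes were chosen by their CPM in the anti-B7-H3, anti-PD1 and IgG libraries, so these levels and their differences between groups are a description. Where the number of them that passed the fit of all genes is given, it stands beside the share of all genes that passed, and nothing is read from it. Other genes of the same pathways, which are not on the list, were tested. Their lists were also chosen with earlier results of these data known.

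The cells were CD45-positive leukocytes sorted from subcutaneous tumours of the mouse melanoma line YUMM 2.1 in C57BL/6J hosts. Once tumours measured 20 to 50 mm3, the mice received anti-B7-H3 (its target belongs to the B7 family of immune ligands), anti-PD1 (its target restrains T cells) or an IgG isotype control. There were 3 bulk RNA libraries per group, 9 in all, and the 3 IgG libraries served both antibody groups. The labels used here give no dose, no time of collection and no age, and do not say whether a library holds 1 animal or several, so p-values measure the spread between these libraries, which may be technical.

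Arginine sits at a branch point of myeloid cell metabolism. It enters the cell through cationic amino acid transporters. Arginase splits it into urea and ornithine, which feeds polyamines and proline, and inducible nitric oxide synthase turns it into nitric oxide and citrulline. Argininosuccinate synthase takes citrulline back towards arginine. Itaconate is made in mitochondria of activated macrophages and neutrophils from cis-aconitate, an intermediate of the citric acid cycle. It inhibits succinate dehydrogenase and is known to act on the NRF2 and ATF3 responses. Arginase of tumour myeloid cells is known for depleting the arginine that T cells use.

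All 7 genes are annotated as protein-coding on GRCm38 in GENCODE M21. Arg1 lies on chromosome 10 from 24915221 to 24927484 on the minus strand. The others lie on the plus strand: Arg2 on chromosome 12 from 79130777 to 79156301, Slc7a2 on chromosome 8 from 40862396 to 40922308 and Nos2 on chromosome 11 from 78920787 to 78960254. Ass1 lies on chromosome 2 from 31470207 to 31520672, Odc1 on chromosome 12 from 17544794 to 17551505 and Acod1 on chromosome 14 from 103046977 to 103056573. The libraries do not mark strand. Vti1b and Gm48780 overlap Arg2, and Gm26584 overlaps Slc7a2. The transcript lengths used were coding lengths, and whether these overlaps reach coding parts was not tested. Where they do, reads in the overlaps cannot be assigned with certainty.

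Promoter windows of 300 bases, from 250 before to 50 after the start, were matched in RefSeq (GRCm38.p6) for 3 of the 7 genes. All genes with a window are shown, and Arg1, Arg2, Slc7a2 and Nos2 had none. Whether the letters of a window bear on the level of its gene was not tested. The Ass1 window is chr2:31470020-31470319, the Odc1 window chr12:17544623-17544922 and the Acod1 window chr14:103046762-103047061, all on the plus strand. Capitals mark matches to the motifs named after the sequences.
Ass1: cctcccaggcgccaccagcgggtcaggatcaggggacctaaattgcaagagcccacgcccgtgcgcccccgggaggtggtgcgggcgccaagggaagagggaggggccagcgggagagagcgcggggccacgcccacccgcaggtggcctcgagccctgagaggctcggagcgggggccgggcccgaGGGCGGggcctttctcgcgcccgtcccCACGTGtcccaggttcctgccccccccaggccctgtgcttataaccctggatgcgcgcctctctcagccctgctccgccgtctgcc
Odc1: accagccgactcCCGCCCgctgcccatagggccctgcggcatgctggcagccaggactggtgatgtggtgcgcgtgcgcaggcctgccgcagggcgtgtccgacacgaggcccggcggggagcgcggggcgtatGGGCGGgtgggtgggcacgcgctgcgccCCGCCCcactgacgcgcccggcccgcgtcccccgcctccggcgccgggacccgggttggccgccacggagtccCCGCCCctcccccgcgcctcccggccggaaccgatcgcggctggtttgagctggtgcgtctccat
Acod1: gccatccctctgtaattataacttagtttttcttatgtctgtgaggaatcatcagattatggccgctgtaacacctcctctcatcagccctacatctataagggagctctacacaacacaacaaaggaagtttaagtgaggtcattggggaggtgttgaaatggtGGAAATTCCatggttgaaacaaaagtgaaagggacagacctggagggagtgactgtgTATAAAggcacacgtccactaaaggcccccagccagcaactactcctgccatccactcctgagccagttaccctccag
The windows of Ass1 and Odc1 had a GC content of 74.0% and 78.0% with 27 and 42 CG pairs, against 47.0% and 2 CG pairs in the Acod1 window. The median of 32851 windows was 52.7% and 7 CG pairs. The search covered 10 motifs on both strands. Positions are counted from the RefSeq start. The GENCODE gene starts given above lie inside the windows, before the RefSeq start, so some matches, such as TATAAA of Acod1, fall inside the GENCODE genes. The Acod1 window held TATAAA (a core promoter element, in 13.6% of all windows) at -28 from the start site, and GGAAATTCC, a match to GGAANNTCC (NF-kB, 4.26%), at -85. The Ass1 window held CACGTG (MYC E-box, 7.15%) at -36 and GGGCGG (GC box, 35.7%) at -63. The Odc1 window held the GC box 4 times, at -238, -116, -88 and -15. No capitals-marked motif overlapped another. The other motifs included the interferon response element (3.44%), the STAT6 element (6.95%), TTGCNNAA (C/EBP, 10.8%), TGANTCA (AP-1, 7.81%) and TGACGTCA (cAMP response element, 1.79%), and the letters of these were not in the windows. A match is a description of the letters and not a site of binding.

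Library totals ran from 14487012 to 31533106 estimated counts. IgG library 2 stood apart from the rest on the first principal component (35.9% of the variance) and anti-PD1 library 3 on the second (18.5%). These libraries also had 1896 and 1248 of 13178 tested genes at 0, against 224 to 822 in the other libraries. Ptprc, the gene of CD45, was present at 1718 to 2348 CPM (gene counts scaled to library size) in anti-B7-H3 libraries, 1821 to 2411 CPM in anti-PD1 libraries and 1871 to 2913 CPM in IgG libraries. CPM values of single genes are scaled by TMM factors throughout.

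Arg1, the cytosolic arginase, was the gene of the 7 with the highest level in both antibody groups. It had 1148, 1081 and 827 CPM in the anti-B7-H3 libraries and 1335, 1071 and 887 CPM in the anti-PD1 libraries, against 93.4, 32.0 and 191 CPM in the IgG libraries. The antibody libraries all lay above every IgG library, and the antibody groups overlapped each other. On the log2 scale the fold change was 3.27 ± 0.54 for anti-B7-H3 against IgG and 3.38 ± 0.54 for anti-PD1 against IgG (SE, n = 3 per group). For anti-B7-H3 against anti-PD1 it was -0.11 ± 0.49, and 0.019 or 0.056 without anti-B7-H3 library 3 or anti-PD1 library 1. Ranked by TPM (a level per transcript length) among all genes, Arg1 stood between 233 and 275 in anti-B7-H3 libraries, between 181 and 295 in anti-PD1 libraries and between 1310 and 4880 in IgG libraries.

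Arg2, the mitochondrial arginase, was a minor part of arginase RNA. It had 6.83, 4.45 and 9.77 CPM in the anti-B7-H3 libraries and 29.6, 21.6 and 21.3 CPM in the anti-PD1 libraries, against 1.15, 5.08 and 5.03 CPM in the IgG libraries. The anti-PD1 libraries lay above all others, while the anti-B7-H3 and IgG groups overlapped. The edgeR fit gave a log2 fold change of 0.90 ± 0.55 for anti-B7-H3 against IgG, 2.69 ± 0.58 for anti-PD1 against IgG and -1.78 ± 0.56 for anti-B7-H3 against anti-PD1. Arg1 made up 99.0 to 99.6% of the summed TPM of both arginases in anti-B7-H3 libraries, 97.9 to 98.2% in anti-PD1 libraries and 87.6 to 98.9% in IgG libraries.

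Slc7a2, which encodes the cationic amino acid transporter CAT2, had 13.9, 10.7 and 11.9 CPM in the anti-B7-H3 libraries and 25.0, 18.2 and 41.5 CPM in the anti-PD1 libraries, against 2.26, 1.05 and 0 CPM in the IgG libraries. The 3 groups did not overlap, with anti-PD1 highest and IgG lowest. IgG libraries 1, 2 and 3 held 45, 17 and 0 counts of it, and a count of 0 in IgG library 3 allows up to 0.156 CPM. Fold changes on the log2 scale were 3.45 ± 0.97 for anti-B7-H3 against IgG, 4.67 ± 1.02 for anti-PD1 against IgG and -1.21 ± 0.88 for anti-B7-H3 against anti-PD1. The Slc7a2 transcript with a coding length of 2025 bases took 15.8, 11.7 and 10.4% of the gene's counts in the anti-B7-H3 libraries and 10.6, 20.2 and 23.4% in the anti-PD1 libraries, against none of the 45 and 17 counts in IgG libraries 1 and 2. The transcript of 1977 bases took the rest in both antibody groups. A transcript of 1974 bases took 15.6 and 58.6% of the counts in IgG libraries 1 and 2, and 0 in every antibody library. These shares rest on 7.005 and 9.956 estimated counts, so the transcript shares in IgG libraries are uncertain.

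Nos2, the inducible nitric oxide synthase, was low in every group. It had 3.41, 7.58 and 6.14 CPM in the anti-B7-H3 libraries and 10.2, 12.8 and 13.2 CPM in the anti-PD1 libraries, against 1.55, 0 and 0 CPM in the IgG libraries. The 3 groups again did not overlap and stood in the same order. The IgG signal was 31 counts in library 1, all placed on a transcript with a coding length of 3432 bases. All counts in the antibody libraries were on the transcript of 3435 bases. Floors of 3 counts allow up to 0.186 and 0.156 CPM in IgG libraries 2 and 3. The fitted log2 fold change was 3.43 ± 1.33 for anti-B7-H3 against IgG, 4.51 ± 1.39 for anti-PD1 against IgG and -1.08 ± 1.20 for anti-B7-H3 against anti-PD1, with the IgG side resting on 1 library.

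Ass1, the argininosuccinate synthase that recycles citrulline, did not share this order. It had 92.8, 90.8 and 89.3 CPM in the anti-B7-H3 libraries and 139, 102 and 214 CPM in the anti-PD1 libraries, against 95.0, 188 and 131 CPM in the IgG libraries. The anti-B7-H3 libraries lay below all others, by a small margin from IgG library 1, and the anti-PD1 and IgG groups overlapped. As log2 fold changes, the values were -0.60 ± 0.30 for anti-B7-H3 against IgG, 0.14 ± 0.30 for anti-PD1 against IgG and -0.74 ± 0.30 for anti-B7-H3 against anti-PD1. Without IgG library 1 or anti-PD1 library 3, the value for anti-PD1 against IgG was -0.04 or -0.19.

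Odc1, the ornithine decarboxylase that opens polyamine synthesis, was abundant in all groups. It had 221, 466 and 565 CPM in the anti-B7-H3 libraries and 792, 590.0 and 873 CPM in the anti-PD1 libraries, against 389, 319 and 328 CPM in the IgG libraries. The anti-PD1 libraries lay above all others, and anti-B7-H3 library 1 lay below every IgG library. In log2 fold change, the values were 0.27 ± 0.31 for anti-B7-H3 against IgG, 1.12 ± 0.31 for anti-PD1 against IgG and -0.85 ± 0.31 for anti-B7-H3 against anti-PD1. Without anti-B7-H3 library 3, the value for anti-B7-H3 against IgG was -0.010. Azin2, a member of the antizyme inhibitor family related to Odc1, was at 0.710 ± 0.594 CPM in anti-B7-H3 and 1.89 ± 1.61 CPM in anti-PD1 libraries (SD, n = 3 each).

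Acod1, the mitochondrial enzyme that makes itaconate, had the largest fitted fold change of the 7 in both comparisons with IgG over the 9 libraries. It had 20.9, 22.3 and 49.9 CPM in the anti-B7-H3 libraries and 106, 102 and 86.9 CPM in the anti-PD1 libraries, against 3.41, 0 and 2.75 CPM in the IgG libraries. The 3 groups did not overlap, and anti-B7-H3 library 3 stood nearest to the anti-PD1 libraries. The IgG libraries held 68, 0 and 53 counts, and a count of 0 in IgG library 2 allows up to 0.186 CPM. Expressed as log2 fold change, the values were 3.90 ± 0.96 for anti-B7-H3 against IgG, 5.56 ± 1.03 for anti-PD1 against IgG and -1.66 ± 0.85 for anti-B7-H3 against anti-PD1.

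**Figure D1:**
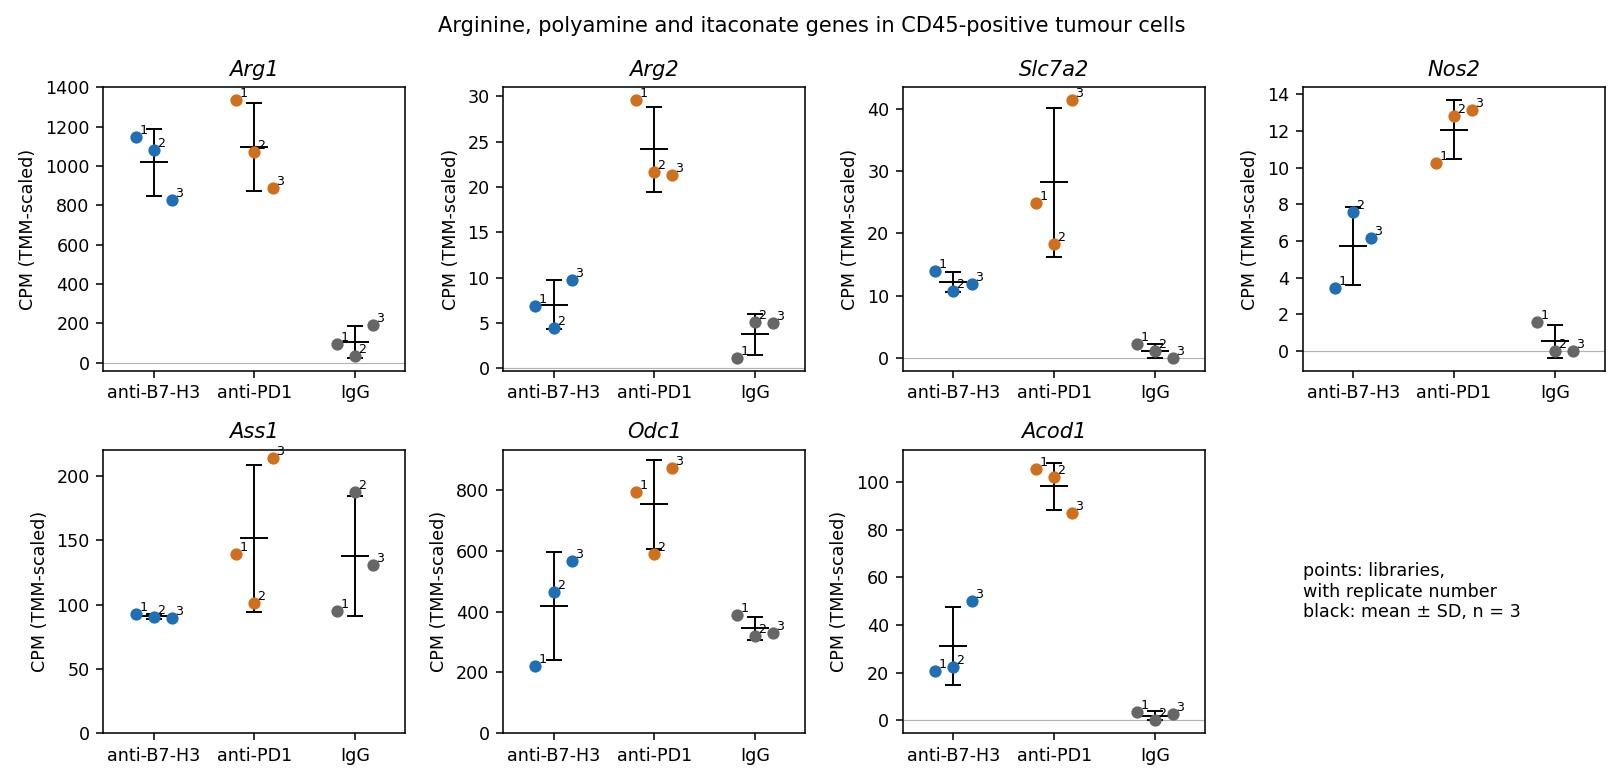
Level of each of the 7 genes in CPM (TMM-scaled, linear axis) by group. Points are libraries with their replicate number, and black bars are the mean ± SD of 3 libraries. Arg1 is at 827 to 1335 CPM in the 6 antibody libraries and at 32.0 to 191 CPM in the IgG libraries, whereas Ass1 is at 89.3 to 214 CPM and Odc1 at 221 to 873 CPM over all 9.

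In anti-B7-H3 against IgG, 1 of the 7 genes, Arg1, passed an edgeR adjusted p of 0.05, beside 0.850% of all 13178 tested genes (0.827% higher and 0.0228% lower). The groups did not overlap for 4 genes that were higher in anti-B7-H3 libraries, beside 9.96% of all genes, and for 1 that was lower, Ass1, beside 5.49%. In anti-PD1 against IgG, 3 of the 7 passed, namely Arg1, Arg2 and Acod1, beside 1.74% of all genes (1.72% higher and 0.0152% lower). The groups did not overlap for 6 genes that were higher in anti-PD1 libraries, all but Ass1, beside 9.99%, and for 0 that were lower, beside 6.52%. The median log2 fold change over the 7 genes was 3.27 for anti-B7-H3 and 3.38 for anti-PD1 against IgG, beside 0.02 and -0.04 over all tested genes. All 7 genes passed the filter on low counts. These comparisons were among the values that chose the genes, so nothing is read from the counts.

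Some of these calls hung on single libraries. Arg1 in anti-B7-H3 against IgG was not called without IgG library 1, without any 1 of the 3 anti-B7-H3 libraries, or without anti-PD1 library 1 or 2, at log2 fold changes of 3.18 to 3.40. In anti-PD1 against IgG it was not called without IgG library 1 or anti-PD1 library 1, at 3.21 to 3.33. Arg2 and Acod1 in anti-PD1 against IgG were called without IgG library 2, and not without any 1 of the other 8 libraries, at 2.29 to 2.96 for Arg2 and 5.51 to 6.16 for Acod1.

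In anti-B7-H3 against anti-PD1, 0 of the 7 genes passed the edgeR test, beside 0.00% of all genes. There were 3 of the 7 and 425 of all genes at an unadjusted p under 0.05, and DESeq2 called 0 of the 7 and 19 of all genes. The groups did not overlap for 6 of the 7, all but Arg1 and all lower in anti-B7-H3 libraries, beside 6.40% of all genes, and for 0 that were higher, beside 7.13%. The median log2 fold change was -1.08 over the 7 genes, beside 0.04 over all tested genes.

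**Figure D2:**
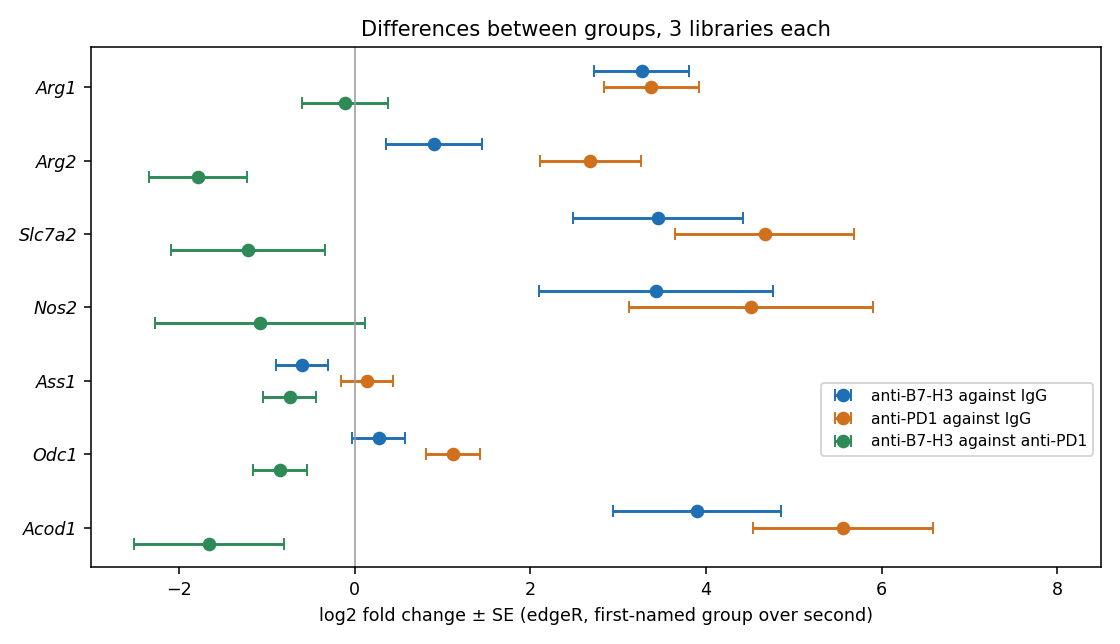
Log2 fold change of each gene in 3 comparisons, the first-named group over the second, with bars of 1 SE from the edgeR fit of 9 libraries. Acod1, Slc7a2, Nos2 and Arg1 lie between 3.27 and 5.56 in both comparisons with IgG, and Ass1 lies between -0.74 and 0.14 in all 3.

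Ordered by TPM, Arg1 came first in the anti-B7-H3 libraries at 638 ± 90.0 TPM, followed by Odc1 at 246 ± 137, Ass1 at 43.0 ± 7.38, Acod1 at 12.6 ± 8.39, Arg2 at 4.04 ± 2.03, Slc7a2 at 3.32 ± 0.38 and Nos2 at 0.898 ± 0.420 TPM (SD, n = 3). Neighbours in this order did not overlap, other than Arg2 and Slc7a2. The anti-PD1 libraries had the same order without overlap, at 694 ± 135, 419 ± 89.1, 72.3 ± 29.5, 38.1 ± 2.69, 13.7 ± 2.56, 7.88 ± 3.64 and 1.85 ± 0.305 TPM. In the IgG libraries Odc1 came first at 232 ± 75.7 TPM, and Ass1 at 70.2 ± 27.7 and Arg1 at 66.6 ± 41.2 TPM overlapped. Arg2 at 2.19 ± 1.27, Acod1 at 0.849 ± 0.815, Slc7a2 at 0.370 ± 0.388 and Nos2 at 0.0986 ± 0.171 TPM each overlapped the next. Between 21.9 and 38.8% of the TPM of Odc1 was put on a transcript of 129 bases that took 0.777 to 1.70% of its counts. By its transcript of 1386 bases alone, the gene stood at 71.8 to 264 TPM in anti-B7-H3 libraries, 237 to 371 TPM in anti-PD1 libraries and 117 to 194 TPM in IgG libraries.

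Ratios between the branches are given on the TPM scale. Arg1 stood at 2.29 to 7.91 times the 1386-base transcript of Odc1 in TPM in anti-B7-H3 libraries and 1.55 to 2.80 times in anti-PD1 libraries, against 0.156 to 0.901 times in IgG libraries. Arg1 was above this Odc1 transcript in all 6 antibody libraries and below it in all 3 IgG libraries. Arg1 stood at 571 to 1350 times Nos2 in TPM in anti-B7-H3 libraries and 273 to 554 times in anti-PD1 libraries, against 242 times in IgG library 1, the IgG library with counts of Nos2. Arginase RNA was in excess of Nos2 RNA wherever both were counted. Arg1 stood at 27.4 to 88.1 times Acod1 in anti-B7-H3 libraries and 16.5 to 20.9 times in anti-PD1 libraries, against 44.1 and 114 times in the IgG libraries that had counts of Acod1. The anti-B7-H3 and anti-PD1 ranges of this ratio did not overlap.

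The summed markers of macrophages, neutrophils and monocytes lay above every IgG library in both antibody groups, as did Arg1, Slc7a2, Nos2 and Acod1. In anti-B7-H3 libraries Arg2 and Odc1 overlapped IgG and Ass1 lay below it, and in anti-PD1 libraries Ass1 overlapped IgG. The summed CPM of 12 macrophage markers was 1144 to 1708 in anti-B7-H3 libraries and 1292 to 1580 in anti-PD1 libraries, against 102 to 194 in IgG libraries. In anti-B7-H3 and in anti-PD1 against IgG, 6 and 7 of the 12 rose (edgeR), beside 0.827% and 1.72% of all tested genes. No macrophage marker was at 0 in all libraries. The sum of 10 neutrophil markers was 287 to 500 CPM in anti-B7-H3 libraries and 661 to 947 CPM in anti-PD1 libraries, against 82.0 to 124 CPM in IgG libraries, and 3 and 4 of the 8 tested rose. Monocyte markers summed to 1551 to 2153, 1285 to 2453 and 476 to 891 CPM in anti-B7-H3, anti-PD1 and IgG libraries, and 0 of the 7 were called in either comparison with IgG. In bulk RNA, fewer cells of a type and less RNA per cell cannot be told apart. The part of these cell types in the differences was not tested.

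Lymphoid and non-immune markers were summed in the same way. T cell markers came to 3884 to 5845 CPM in anti-B7-H3 libraries, 3854 to 5030 CPM in anti-PD1 libraries and 4918 to 6731 CPM in IgG libraries. NK cell markers summed to 1667 to 2235 CPM in anti-B7-H3 libraries, 1303 to 1835 CPM in anti-PD1 libraries and 426 to 1487 CPM in IgG libraries. Markers of group 2 innate lymphoid cells, which are known to express Arg1 in mice, summed to 185 to 459, 506 to 654 and 297 to 767 CPM in the same order of groups. Fibroblast markers, at 8.42 to 14.2, 13.3 to 29.7 and 0.495 to 1.60 CPM, and melanoma markers, at 6.20 to 9.26, 0.376 to 14.1 and 2.01 to 11.4 CPM, were low, and the melanoma gene Dct was at 0 in every library. Sums above every IgG library were thus not particular to myeloid markers. Fibroblast sums lay above IgG in both antibody groups, and NK cell and endothelial sums in anti-B7-H3 libraries. Endothelial markers summed to 105 to 107 CPM in anti-B7-H3, 43.0 to 83.0 CPM in anti-PD1 and 72.6 to 86.6 CPM in IgG libraries. Sums of dendritic cell, B cell, mast cell, erythroid and keratinocyte markers overlapped IgG in both antibody groups.

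Set against the summed macrophage markers, which were themselves higher in both antibody groups, antibody and IgG libraries no longer stood apart for Arg1. Per 1000 CPM of macrophage markers there were 649 to 944 CPM of Arg1 in anti-B7-H3 libraries and 678 to 865 in anti-PD1 libraries, against 496, 315 and 986 in the IgG libraries, so the groups overlapped. Acod1 stood at 12.3 to 39.2 in anti-B7-H3 libraries and 64.7 to 68.3 in anti-PD1 libraries, against 0 to 18.1 in IgG libraries, and the anti-PD1 libraries lay above all others. Arg2 stood at 3.88 to 7.67 in anti-B7-H3 libraries and 13.7 to 19.2 in anti-PD1 libraries, against 6.12 to 49.9 in IgG libraries. Slc7a2 and Nos2 stood at 8.13 to 9.36 and 2.00 to 6.62 in anti-B7-H3 libraries and at 11.5 to 32.1 and 6.63 to 10.2 in anti-PD1 libraries, against 0 to 12.0 and 0 to 8.25 in IgG libraries. Odc1 and Ass1 stood the other way round, at 129 to 444 and 54.3 to 79.3 in anti-B7-H3 libraries and 373 to 676 and 64.3 to 166 in anti-PD1 libraries, against 1690 to 3140 and 505 to 1850 in IgG libraries. The marker sum was 102 to 194 CPM in IgG and 1144 to 1708 CPM in antibody libraries. A gene that differed less in CPM than this sum comes out higher in IgG on this scale. The order of Odc1 and Ass1 is therefore no measure of their level in macrophages, and the ratios of the other genes hang on the same sum. Of the 12 markers, 3 were at 0 in IgG library 2 and 1 was at 0 in anti-PD1 library 3. Per 1000 CPM of neutrophil markers, Acod1 stood at 51.2 to 99.9 in anti-B7-H3 libraries and 108 to 132 in anti-PD1 libraries, against 0 to 36.5 in IgG libraries, and Arg2 at 15.5 to 19.6 and 22.8 to 36.2, against 12.3 to 61.4. On the same scale Arg1 stood at 1656 to 3768 and 1130 to 1636, against 257 to 2335, and the IgG range overlapped both. Monocyte markers were not used as a scale, and the part of any cell type in the Arg1 difference was not tested.

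**Figure D3:**
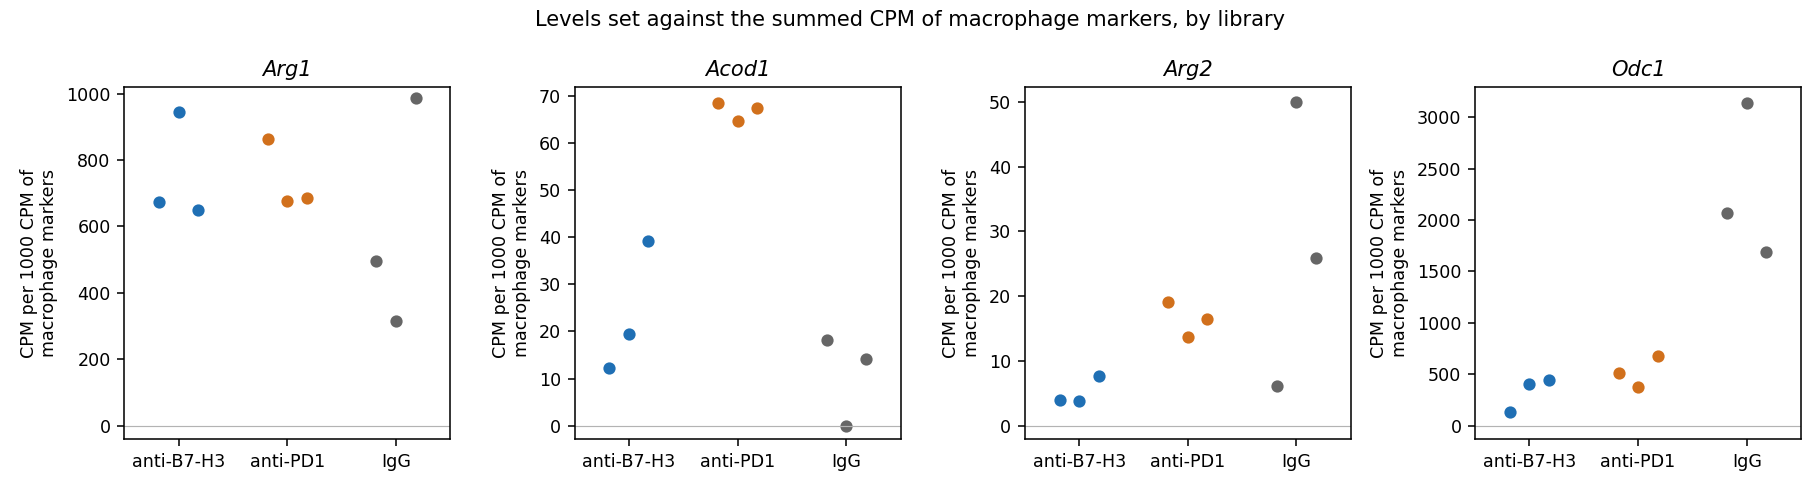
Level of 4 genes in CPM per 1000 CPM of 12 summed macrophage markers (linear axis) in each of the 9 libraries. The groups overlap for Arg1, the anti-PD1 libraries lie highest for Acod1 (64.7 to 68.3), and the IgG libraries lie highest for Odc1 (1690 to 3140). The marker sum itself was 102 to 194 CPM in IgG libraries and 1144 to 1708 CPM in antibody libraries.

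Other genes of these pathways were tested in 8 lists of 128 genes, of which 114 passed the filter on low counts. In anti-B7-H3 against IgG, 5 of the 114 rose and 0 fell (4.39%), and in anti-PD1 against IgG, 10 rose and 0 fell (8.77%), beside 0.850% and 1.74% of all tested genes. Since earlier results of these data were known when the lists were chosen, these shares are a description. Most of the genes called were transcription factors and signalling genes rather than enzymes. The median log2 fold change over the 114 was 0.29 and 0.15, beside 0.02 and -0.04 over all genes. In anti-B7-H3 against anti-PD1, 0 of the 114 passed the edgeR test, with 7 at an unadjusted p under 0.05 and 1, Amd1, called by DESeq2. Of all tested genes, 425 had an unadjusted p under 0.05, and DESeq2 called 19 genes.

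Of 13 tested genes of arginine transport and the urea cycle, 0 passed in anti-B7-H3 against IgG and 1 rose in anti-PD1 against IgG. It was Slc3a2, the heavy chain that several amino acid exchangers share, at 448 ± 47.3 CPM in anti-B7-H3 and 583 ± 38.4 CPM in anti-PD1 libraries, against 321 ± 45.1 CPM in IgG libraries (SD, n = 3 each). Its log2 fold change was 0.48 ± 0.18 for anti-B7-H3 (edgeR adjusted p = 0.441) and 0.86 ± 0.18 for anti-PD1 (adjusted p = 0.0377), and the anti-PD1 call was lost without IgG library 1 or 3, anti-B7-H3 library 2 or 3, or any 1 anti-PD1 library (adjusted p from 0.0734 to 0.176). Gatm, which uses arginine in the first step of creatine synthesis, had 161 ± 51.1 CPM in anti-B7-H3 and 145 ± 33.6 CPM in anti-PD1 libraries, against 11.5 ± 9.90 CPM in IgG libraries. Both antibody groups lay above every IgG library and overlapped each other, and the adjusted p against IgG was 0.321 and 0.229. Slc7a7, a light chain that exports cationic amino acids, had 157, 228 and 260 counts in the anti-B7-H3 libraries and 426, 423 and 227 counts in the anti-PD1 libraries, against 34, 0 and 0 counts in the IgG libraries (adjusted p = 0.380 and 0.185).

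Of 11 tested genes of nitric oxide synthesis and its cofactor, 0 passed in either comparison with IgG. Gch1, which opens the synthesis of the cofactor tetrahydrobiopterin, had 50.5 ± 6.65 CPM in anti-B7-H3 and 56.6 ± 1.45 CPM in anti-PD1 libraries, against 40.8 ± 5.92 CPM in IgG libraries (edgeR adjusted p = 0.771 and 0.438). Nos1, the neuronal synthase, had 16, 12 and 10 counts in the anti-B7-H3 libraries and 2, 25 and 48 counts in the anti-PD1 libraries, against 2, 0 and 0 counts in the IgG libraries.

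Of 15 tested genes of polyamine synthesis and catabolism, 0 passed in either comparison with IgG. The smallest adjusted p of the list in anti-PD1 against IgG was that of Smox, the spermine oxidase, at 72.1 ± 20.7 CPM in anti-B7-H3 and 117 ± 21.1 CPM in anti-PD1 libraries, against 49.7 ± 15.0 CPM in IgG libraries (edgeR adjusted p = 0.667 and 0.0662). Sat1, the acetyltransferase that starts polyamine breakdown, had 249 ± 9.94 CPM in anti-B7-H3 and 298 ± 12.7 CPM in anti-PD1 libraries, against 192 ± 32.2 CPM in IgG libraries (adjusted p = 0.572 and 0.119). Srm, the spermidine synthase, had 87.4 ± 17.3 CPM in anti-B7-H3 libraries against 57.3 ± 18.8 CPM in IgG libraries (adjusted p = 0.652). Amd1, an enzyme that supplies the aminopropyl donor, was listed at 0 in all 3 anti-B7-H3 libraries, at 0, 0 and 101 counts in the anti-PD1 libraries and at 58, 55 and 0 counts in the IgG libraries. It has a near-identical copy, Amd2, between which reads cannot be placed with certainty, so no fold change is given.

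Of 11 tested genes of the proline and glutamate branch, 0 passed in anti-B7-H3 against IgG and 1 rose in anti-PD1 against IgG. It was Got1, the cytosolic aspartate aminotransferase, at 82.5 ± 16.1 CPM in anti-B7-H3 and 155 ± 36.0 CPM in anti-PD1 libraries, against 47.2 ± 15.7 CPM in IgG libraries. The log2 fold change was 0.81 ± 0.28 for anti-B7-H3 (edgeR adjusted p = 0.398) and 1.71 ± 0.29 for anti-PD1 (adjusted p = 0.0123, and 0.0511 without anti-PD1 library 3). Prodh, the proline dehydrogenase, had 7.19 ± 2.08 CPM in anti-B7-H3 and 1.07 ± 1.05 CPM in anti-PD1 libraries, against 3.31 ± 2.56 CPM in IgG libraries. Its anti-B7-H3 libraries lay above its anti-PD1 libraries without overlap, as did those of 7.13% of all genes. The edgeR test between them gave an adjusted p of 1.00.

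Of 22 tested genes of the itaconate substrate and succinate steps, 0 passed in anti-B7-H3 against IgG and 1 rose in anti-PD1 against IgG. That gene was Irf4, a transcription factor and not an enzyme of the cycle. It had 22.0 ± 1.94 CPM in anti-B7-H3 and 36.0 ± 3.71 CPM in anti-PD1 libraries, against 8.89 ± 4.51 CPM in IgG libraries. On the log2 scale the fold change was 1.31 ± 0.40 for anti-B7-H3 (edgeR adjusted p = 0.287) and 2.02 ± 0.40 for anti-PD1 (adjusted p = 0.0307). The anti-PD1 call was lost without IgG library 1, anti-B7-H3 library 2 or 3, or any 1 anti-PD1 library (adjusted p from 0.0554 to 0.116). Sucla2, a subunit of succinyl-CoA synthetase, had 80.3 ± 3.71 CPM in anti-B7-H3 and 73.8 ± 10.3 CPM in anti-PD1 libraries, against 107 ± 25.3 CPM in IgG libraries (adjusted p = 0.643 and 0.381).

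Of 14 tested genes of the itaconate-responsive NRF2, ATF3 and IkB-zeta list, 1 rose in anti-B7-H3 and 3 rose in anti-PD1 against IgG, and 0 fell. Atf3, a stress-induced transcription factor, had 116, 92.1 and 116 CPM in the anti-B7-H3 libraries and 123, 148 and 138 CPM in the anti-PD1 libraries, against 15.2, 8.17 and 13.5 CPM in the IgG libraries. The edgeR fit gave a log2 fold change of 3.13 ± 0.26 for anti-B7-H3 (edgeR adjusted p = 0.00104) and 3.46 ± 0.27 for anti-PD1 (adjusted p = 0.00037), and both calls held without each library in turn. Nfkbiz, which encodes IkB-zeta, had 269 ± 120 CPM in anti-B7-H3 and 392 ± 89.5 CPM in anti-PD1 libraries, against 117 ± 33.5 CPM in IgG libraries (adjusted p = 0.236 and 0.0287). Nfe2l2, which encodes NRF2, had 80.1 ± 13.9 CPM in anti-B7-H3 and 124 ± 14.2 CPM in anti-PD1 libraries, against 63.0 ± 3.07 CPM in IgG libraries, and its log2 fold change for anti-PD1 was 0.98 ± 0.19 (adjusted p = 0.0292). Nfkbiz lost its anti-PD1 call without IgG library 2 or 3, anti-B7-H3 library 2 or any 1 anti-PD1 library, and Nfe2l2 without these or IgG library 1 (adjusted p from 0.0516 to 0.117).

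Targets of NRF2 on that list did not pass the edgeR test, though Hmox1 and Slc7a11 lay above every IgG library in both antibody groups. DESeq2 called 3 and 4 of the 14 genes of the list in anti-B7-H3 and in anti-PD1 against IgG. Hmox1, the haem oxygenase, had 48.0 to 68.6 CPM in anti-B7-H3 and 47.6 to 153 CPM in anti-PD1 libraries, against 0 to 15.4 CPM in IgG libraries. Its log2 fold change was 2.86 ± 1.22 for anti-B7-H3 (edgeR adjusted p = 0.565) and 3.62 ± 1.26 for anti-PD1 (SE, not called). Slc7a11, a subunit of the cystine and glutamate exchanger, had 8.95 ± 2.08 CPM in anti-B7-H3 and 18.5 ± 6.33 CPM in anti-PD1 libraries, against 0.983 ± 1.53 CPM in IgG libraries (adjusted p = 0.424 and 0.146). Its log2 fold change was 3.17 ± 1.13 and 4.22 ± 1.18 (SE). Others lay near 0 on the log2 scale in anti-B7-H3 and in anti-PD1 against IgG: Gclc, a subunit of the enzyme that starts glutathione synthesis, at 0.27 and -0.28, its partner subunit Gclm at 0.04 and 0.02, the thioredoxin reductase Txnrd1 at 0.19 and -0.12 and the peroxiredoxin Prdx1 at 0.15 and 0.01. The quinone reductase Nqo1 was at 1.78 ± 1.76 and 2.49 ± 1.80 and the sulfiredoxin Srxn1 at -0.08 ± 0.88 and 0.67 ± 0.88 (SE).

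Of 23 tested regulators of Arg1, Nos2 and Acod1, 4 rose and 0 fell in each comparison with IgG, and they were Cebpb, Klf4, Irf5 and Csf2rb both times. Cebpb, a transcription factor known to bind the Arg1 enhancer in mouse macrophages, had 741, 464 and 424 CPM in the anti-B7-H3 libraries and 683, 780.2 and 959 CPM in the anti-PD1 libraries, against 124, 91.4 and 135 CPM in the IgG libraries. Its log2 fold change was 2.22 ± 0.27 for anti-B7-H3 (edgeR adjusted p = 0.00383) and 2.79 ± 0.27 for anti-PD1 (adjusted p = 0.000645). Klf4, a transcription factor of monocytes and alternatively activated macrophages, had 24.9 ± 4.34 CPM in anti-B7-H3 and 30.7 ± 6.41 CPM in anti-PD1 libraries, against 4.20 ± 0.909 CPM in IgG libraries (adjusted p = 0.0051 and 0.0019). Cebpb and Klf4 kept their calls without each library in turn, while Klf4 lost its anti-B7-H3 call with limma-voom and quality weights (adjusted p = 0.0869).

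Irf5, an interferon regulatory factor of inflammatory macrophages, had 149 ± 7.96 CPM in anti-B7-H3 and 147 ± 24.9 CPM in anti-PD1 libraries, against 62.7 ± 6.93 CPM in IgG libraries (edgeR adjusted p = 0.0118 and 0.00808). Without anti-B7-H3 library 2 or 3, the anti-B7-H3 value had an adjusted p of 0.0546 or 0.0596. Csf2rb, the shared chain of the receptors for GM-CSF, IL-3 and IL-5, had 115 ± 45.8 CPM in anti-B7-H3 and 133 ± 4.09 CPM in anti-PD1 libraries, against 34.5 ± 10.5 CPM in IgG libraries (adjusted p = 0.0305 and 0.0116). Its anti-B7-H3 call held without anti-B7-H3 library 1 and not without any 1 of the other 8 libraries (adjusted p from 0.0518 to 0.131). Hif1a, a hypoxia factor that acts on Nos2 and Arg1 in mouse macrophages, had 185 to 524 CPM in anti-B7-H3 libraries against 555 to 971 CPM in anti-PD1 libraries (edgeR adjusted p = 1.00). These groups did not overlap, beside 6.40% of all genes that were lower in anti-B7-H3 libraries without overlap. The IgG libraries, at 736, 860 and 288 CPM, overlapped both.

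Of 5 tested genes for other amino acid degrading enzymes of myeloid cells, 0 passed in either comparison with IgG. Il4i1, a secreted oxidase of aromatic amino acids, had 18.4 to 33.1 CPM in anti-B7-H3 and 29.7 to 46.6 CPM in anti-PD1 libraries, against 6.07 to 16.5 CPM in IgG libraries (edgeR adjusted p = 0.336 and 0.0611). Kmo, which acts on kynurenine, had 14.3 ± 3.00 CPM in anti-B7-H3 and 19.3 ± 3.96 CPM in anti-PD1 libraries, against 10.1 ± 7.36 CPM in IgG libraries. Over the lists without a call, 9 of 77 genes in anti-B7-H3 and 5 of 31 genes in anti-PD1 against IgG had an unadjusted p under 0.05. Over all 13178 tested genes the counts were 1161 and 1437. DESeq2 called 3 genes of these lists in each comparison, beside 445 and 732 of all genes. Nothing is read from these counts.

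**Figure D4:**
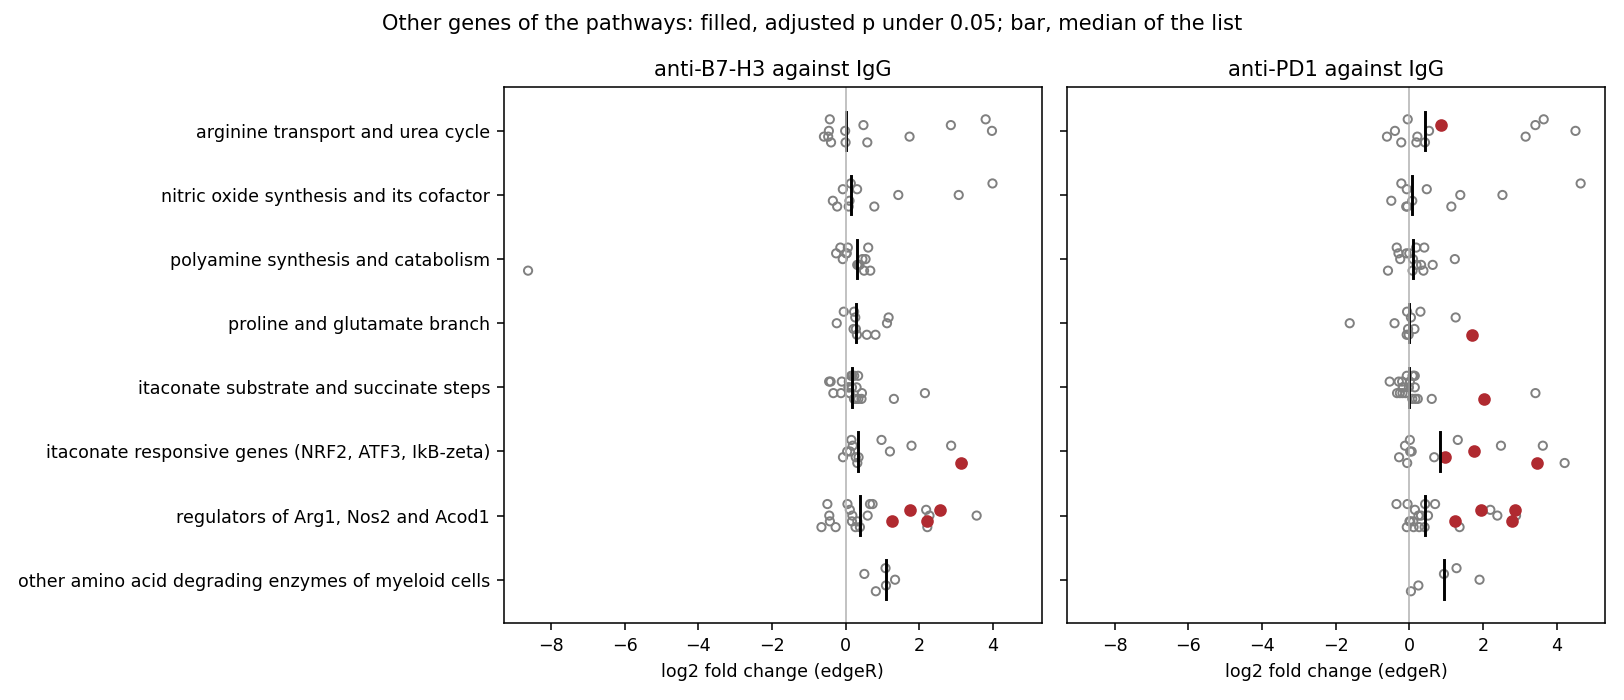
Log2 fold change (edgeR) of 114 tested pathway genes in 8 lists, for anti-B7-H3 against IgG and anti-PD1 against IgG. Filled points have an adjusted p under 0.05, 5 in the first panel and 10 in the second and all above 0, and bars are list medians. The point at the far left of the first panel is Amd1, which was listed at 0 in all anti-B7-H3 libraries.

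The genes whose log2 CPM ran closest to each of the 7 over the 9 libraries are given gene by gene. The measure was Pearson's r over libraries that share 3 groups, given as a description. Whether these genes differ by branch was not tested. Among the 7, r of Acod1 was 0.939 with Arg1, 0.903 with Nos2, 0.733 with Slc7a2 and 0.638 with Arg2. With Odc1 and Ass1 it was 0.636 and -0.271. Within the arginine genes, r was 0.923 for Nos2 and Slc7a2 and -0.320 for Arg1 and Ass1. Among the closest to Arg1 were Tgfbi (r = 0.991), Csf2ra, Fcgr3 and Rhob (0.990). Closest to Acod1 were Ptgs2 (0.995), Clec4e, Hdc, Asprv1 and Trem1 (0.988). Closest to Nos2 were Zfp366 (0.985), Padi4, Rtkn, Thbs1 and Plek (0.980), and closest to Slc7a2 were Clic4 (0.987), Plpp5, Nlrp3, Irf4 and Ckap4 (0.973). For the other genes the closest r was lower: Arg2 was closest to Mcub (0.933), Ass1 to Fggy (0.932) and Odc1 to Dusp4 (0.965).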

How the data were processed

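CD45-positive cells sorted from YUMM 2.1 tumours were amplified with SMART-Seq v4, depleted of ribosomal RNA and made into Nextera XT libraries, per the labels' protocols. These kits do not mark strand. Per the submitters' processing notes the build was GRCm38, and FastQC 0.11.8 is named. The quantifier is not given in the sources used here. The deposited files give, per the file headers, an estimated count and a TPM value for each of 58083 transcripts. Of the transcript lengths, 87.3% are multiples of 3, so they are coding lengths. Effective lengths enter only the deposited TPM values.

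GENCODE M21 matched 57409 transcripts, and the 674 unmatched were not used. Estimated counts were summed over 22136 genes and rounded. One fit of all 9 libraries in edgeR 4.0.16 (R 4.3.3) used TMM factors, filterByExpr by group (13178 genes), group means, robust quasi-likelihood dispersions and Benjamini-Hochberg adjustment over all tested genes, at 0.05. SE is that implied by the quasi-likelihood F. A count of 0 was read against a floor of 3 counts per library. Reads were amplified without molecular identifiers, so floors cover counting error only.

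The 7 genes and the lists were chosen with earlier results of these data known. Named pathway genes come from the up to 4 with the smallest p in each list and comparison, and the 5 most alike genes of each of the 7 were taken by Pearson's r of log2 CPM (prior count 2). A few items that these rules name are not reported here. Other settings were DESeq2 1.42.0, its size factors, library totals, no filter, a filter of 5 CPM in 3 libraries, limma 3.58.1 voom with quality weights, only the 6 libraries compared, non-robust dispersions, counts made from TPM, a replicate block and each library left out. Leaving out IgG library 2 and anti-PD1 library 3 together was added after seeing the data. A combination of antibodies named in the design text was not analysed here.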

Additional observations from a re-analysis of the deposited data

How the results depend on the processing

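Of the 7 genes, 1 was called in anti-B7-H3 against IgG. DESeq2 called 3, the fit without a filter 0, the fit of only the 6 libraries compared 0, and the fit without IgG library 2 and anti-PD1 library 3 called 2. With 1 library left out the count was 0 to 2. In anti-PD1 against IgG, 3 were called, against 6 with DESeq2, 1 without a filter, 1 with limma-voom, 1 with only the 6 libraries and 0 to 3 with 1 library left out. Of the 114 pathway genes, the 5 called in anti-B7-H3 against IgG became 11 with DESeq2, 3 with only the 6 libraries and 3 to 7 with 1 library left out. The 10 called in anti-PD1 against IgG became 16 with DESeq2, 6 with library totals and 5 to 12 with 1 library left out. In anti-B7-H3 against anti-PD1, DESeq2 called 1 pathway gene. Besides left-out libraries, calls of named pathway genes ended under other settings. In anti-B7-H3 against IgG these were Klf4 with limma-voom, Irf5 with only the 6 libraries, and Csf2rb with library totals, the 6 libraries, the block or counts made from TPM. In anti-PD1 against IgG, Slc3a2, Irf4 and Nfe2l2 lost theirs with library totals, the 6 libraries or the block, Nfkbiz with library totals, limma-voom or the block, Nfe2l2 also with limma-voom, and Got1 and Csf2rb with the block. Where the cause of a change was not fewer libraries, it was not tested.

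Deviations from the group mean correlated at -0.120 to 0.156 between same-numbered libraries of different groups, with 1 of 9 pairs above 0.1. Libraries with different numbers reached 0.123. With 3 libraries per group, these values cannot settle whether the numbers pair the libraries. With the replicate block, 0 and 1 of the 7 genes and 4 pathway genes in anti-PD1 against IgG were called, and 64 and 127 of all genes, against 112 and 229 without it. DESeq2 called 445 and 732 of all genes, the fit of only the 6 libraries 44 and 136, and fits with 1 library left out 59 to 144 and 113 to 262.

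Directions turned in few cases. Haao in anti-PD1 against IgG was at a log2 fold change of -0.051 with counts made from TPM. With 1 library left out, Odc1 in anti-B7-H3 against IgG ran from -0.010 to 0.58, Ass1 in anti-PD1 against IgG from -0.19 to 0.46 and Arg1 in anti-B7-H3 against anti-PD1 from -0.24 to 0.056. Without IgG library 1, Nos2 had no IgG counts left and its fitted value of 10.1 or 11.2 is no estimate. Library totals moved the median of all genes in anti-PD1 against IgG by -0.10. At this depth, levels of Nos2, Slc7a2 and Acod1 under 0.156 to 0.186 CPM were not detectable in the IgG libraries listed at 0.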
